A study of Mus musculus with 4 samples.

Results

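The cytosolic ribosomal protein genes encode the proteins of the ribosome that translates mRNA in the cytosol. They were taken as the protein-coding entries of the count table whose symbol is Rps or Rpl followed by a number, with or without the suffix a, x, l, al or l1, together with Rpsa and the stalk genes Rplp0, Rplp1 and Rplp2. The rule found 83 genes among the 54532 of the table, 31 for the small and 52 for the large subunit. The genes Fau, Rack1, Rps3a1 and Rps27rt also encode ribosomal proteins or close copies but are not caught by the rule, and they are described apart.

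The data are RNA-seq read counts from 4 cultures of wild-type mouse macrophages of peritoneal fluid, which the study's methods describe as elicited with thioglycollate in BALB/c mice. The 4 conditions cross 2 media, normal (NM) or containing 30% 4T1-CM (CM), that is, with medium taken from cultured 4T1 cells of a mouse mammary carcinoma, with 2 treatments, the vehicle DMSO or 10 µM CH223191, which antagonizes the aryl hydrocarbon receptor (AHR). The libraries are called NM-DMSO, NM-CH223191, CM-DMSO and CM-CH223191. How long these cultures were exposed is not given in the sources used here. With 1 library for each condition, no difference between conditions could be set against the variation among cultures. The macrophage markers were all above 3 reads in at least 1 library (7 of 7), with Lyz2 at 189512 to 577870 reads, whereas the T cell and neutrophil markers had 0 reads and those of B, epithelial and mast cells summed to at most 0.615 CPM. By contrast, Col1a1 and Col1a2 of the fibroblast list summed with Lum to 49.6, 22.7, 118 and 102 CPM in the libraries in this order, and the part of such cells in the values below was not tested. Values by library keep this order throughout, and CPM are reads scaled for library size.

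A ribosome joins a small subunit, which decodes the mRNA, and a large subunit, which forms peptide bonds, and nearly every ribosomal protein is present as a single copy in its subunit. Cells therefore make these proteins in matched amounts. Most of their mRNAs are short, abundant and begin with a 5′ terminal oligopyrimidine (TOP) tract, a run of C and U through which mTORC1 and LARP1 adjust their translation and stability together. Ribosomal protein genes have also left many processed pseudogenes in mammalian genomes, so that reads can match more than 1 place.

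Sequence bears on the reading of several members, because a read of identical sequence can be assigned to either of its sources. Rps27 (chr3:90212522-90213651, minus strand, GRCm38), a protein of the small subunit, has 252 coding bases before its stop codon in the GENCODE M21 transcripts, which represent the C57BL/6 strain. The retrocopy Rps27rt (chr9:114982366-114982739, minus strand) holds the same 252 bases with 0 differences, and 98.6% of all 50-base words of Rps27 occur in another gene. The paralogue Rps27l (chr9:66946086-66949516, plus strand) differs from Rps27 at 60 of the 252 bases, shown in capitals, and 22.4% of its words occur in another gene.
Rps27: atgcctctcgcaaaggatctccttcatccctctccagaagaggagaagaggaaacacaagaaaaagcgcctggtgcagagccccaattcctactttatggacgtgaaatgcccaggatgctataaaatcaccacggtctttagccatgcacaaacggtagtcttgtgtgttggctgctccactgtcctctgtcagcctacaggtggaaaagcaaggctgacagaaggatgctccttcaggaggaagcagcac
Rps27l: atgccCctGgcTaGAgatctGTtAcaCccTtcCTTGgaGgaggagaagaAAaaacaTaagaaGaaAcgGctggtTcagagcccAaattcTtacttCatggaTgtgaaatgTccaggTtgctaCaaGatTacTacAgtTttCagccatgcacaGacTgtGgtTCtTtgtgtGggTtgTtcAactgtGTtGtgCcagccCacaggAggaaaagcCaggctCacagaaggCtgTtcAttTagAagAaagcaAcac
Rpl26 of the large subunit (chr11:68901583-68906989, plus strand) is closely matched by Gm15772 (chr5:3236431-3236868, plus strand), annotated as a processed pseudogene, which differs at 2 of 435 coding bases. Both differences lie within coding bases 161 to 310 and are in capitals.
Rpl26: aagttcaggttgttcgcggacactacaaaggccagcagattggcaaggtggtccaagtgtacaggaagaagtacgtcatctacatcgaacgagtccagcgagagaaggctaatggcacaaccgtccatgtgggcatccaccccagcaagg
Gm15772: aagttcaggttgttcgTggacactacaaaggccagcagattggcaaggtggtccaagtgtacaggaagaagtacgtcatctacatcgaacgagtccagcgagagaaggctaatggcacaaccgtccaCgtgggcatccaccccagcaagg

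Such overlap was common in the family. For 39 of the 79 members analysed, at least 50% of the 50-base words also occurred in another annotated gene, and the median share was 49.4%. The strain of the cultures is not that of the reference, and the treatment of reads with several matches is not stated for these libraries.

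Around the start sites annotated by RefSeq on GRCm38.p6, 63 members could be matched by symbol and strand. A run of at least 6 bases of C or T, read on the strand of the gene, came within 5 bases of the start in 47.6% of these members (30 of 63), against 20.8% of the same windows of all 16489 protein-coding genes matched. The start base was C in 31.7% of the members and in 13.9% of all. The windows below span 15 bases before the start and 15 from it on, with the longest run of C or T near the start in capitals. They belong to members named below for their values, with a run of 6 or more that crosses or adjoins the start in the first 4 and none in the others. The annotated starts were not checked against these libraries. They lay 0 bases from the 5′ end of the deposited gene for Rps28, 35 for Rpl11 and 281 for Rplp2. For Rps24 the distance was 3553 bases. A window without a run therefore does not show that the mRNA lacks a TOP tract.
Rps27, chr3:90213634-90213663, minus strand: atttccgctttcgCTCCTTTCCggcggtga
Rpl38, chr11:114668565-114668594, plus strand: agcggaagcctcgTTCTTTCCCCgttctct
Rplp2, chr7:141447636-141447665, plus strand: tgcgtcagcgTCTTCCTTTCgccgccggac
Rpl22l1, chr3:28805493-28805522, plus strand: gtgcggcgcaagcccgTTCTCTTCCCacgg
Rpl27, chr11:101442230-101442259, plus strand: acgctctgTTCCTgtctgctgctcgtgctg
Rps28, chr17:33824548-33824577, minus strand: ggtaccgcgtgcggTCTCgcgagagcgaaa
Rpl11, chr4:136053379-136053408, minus strand: ctgacccataaggCCacggggccggaagtc

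The libraries held 15535405, 16129075, 17557127 and 16388246 counts. Members took 1.91% of them in NM-DMSO, 2.77% in NM-CH223191, 1.58% in CM-DMSO and 1.57% in CM-CH223191. The exact 95% Clopper-Pearson intervals were 1.91% to 1.92%, 2.76% to 2.78%, 1.58% to 1.59% and 1.56% to 1.58%, and like all intervals here they cover counting error only. The NM-CH223191 library thus stood above the other libraries for the family as a whole. Reads of the mitochondrial chromosome, of another origin, took 0.633%, 1.17%, 1.76% and 1.79%.

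After TMM scaling with edgeR, 13715 genes reached 10 reads in some library and were analysed, among them 79 of the 83 members. The other members were close to the limit of detection, at which 3 reads correspond to 0.171 to 0.189 CPM. Rpl29 had 4, 9, 6 and 7 reads. Rpl3l, the muscle form of Rpl3, had 6, 6, 3 and 2 reads. Rpl39l, the testis form of Rpl39, had 6, 0, 0 and 2 reads. Rpl10l, the testis form of Rpl10, had 0 reads in each library, which allows up to 3.

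Per kilobase of coding length, the median member stood at 459, 734, 410 and 437 CPM in the 4 libraries. Rpl41, the shortest member with 75 coding bases, was highest at a mean of 8330 CPM per coding kilobase over the 4 libraries, ahead of Rplp1 of the stalk at 2040, Rps29 at 1590, Rpl39 at 1390 and Rpl37a at 1140. Coding length favours mRNAs with long untranslated parts, and per kilobase of the principal transcript Rplp1 led at 1400 CPM with Rpl41 at 1080. The lowest analysed members were Rpl24 at 1.47, Rpl21 at 2.19 and Rpl36al at 2.5 CPM per coding kilobase. The mRNA levels listed for the members thus spanned several orders of magnitude, with reads listed under their copies left out. For Rpl24, 81.7% of the words occurred in other genes and 71.5% of the exonic bases lay within another annotated gene, Gm28037.

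**Figure D1:**
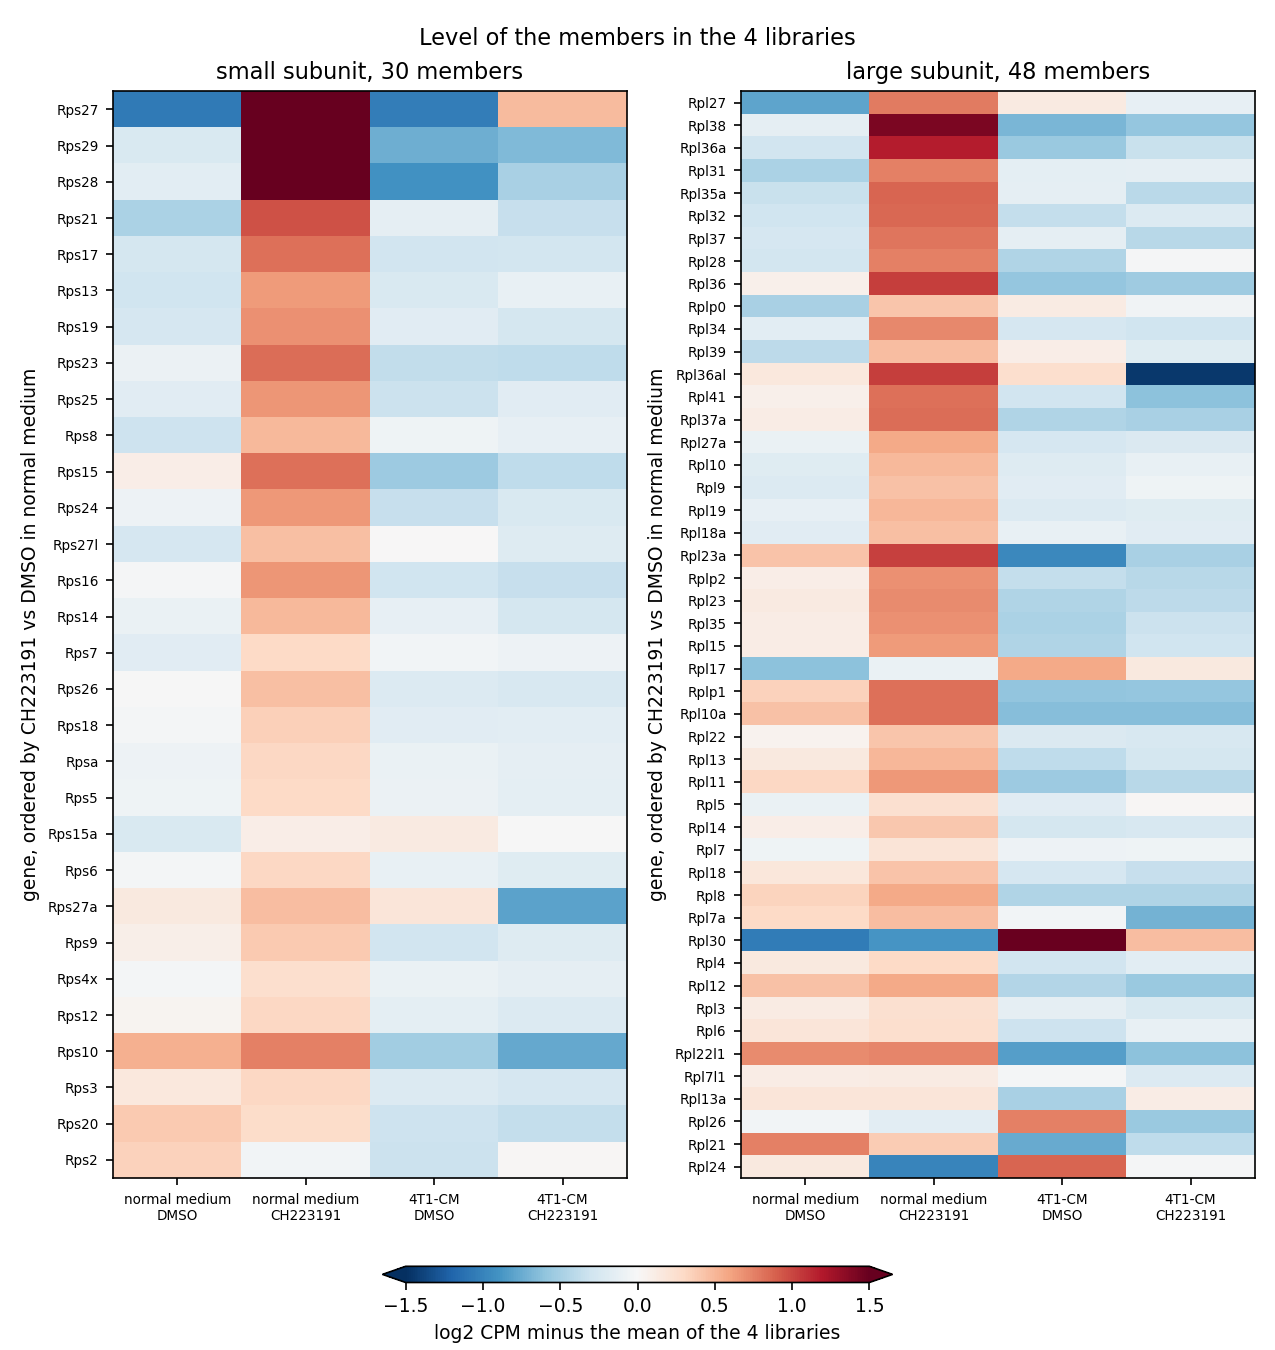
Level of 78 of the analysed members in the 4 libraries (columns), as log2 CPM minus the gene's mean over the 4 libraries, for 30 small subunit members (left) and 48 large subunit members (right) ordered by the ratio of CH223191 to DMSO in normal medium. Red marks a level above the gene's own mean and blue a level below it, and of all 79 analysed members 71 were highest in NM-CH223191.

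In 71 of the 79 members (89.9%) the highest CPM was that of NM-CH223191, a library that was highest for 27.9% of all genes. The lowest library was CM-DMSO for 33 members, CM-CH223191 for 30 and NM-DMSO for 15. The single member lowest in NM-CH223191 was Rpl24, which had few reads. Because 1 library carries this pattern, the comparisons that include it and those that do not are kept apart in what follows. In cultures of many cells, a change in the number of cells of a type and a change in RNA per cell cannot be told apart.

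The comparison of CH223191 with DMSO in normal medium asks how the antagonist acts on macrophages without tumour factors. Members were higher with CH223191 as a group, with a median log2 ratio of 0.57 against 0.00 for all genes, and 74 of 79 lay above 0. At least 1.5-fold higher were 36 members (45.6%) and at least 1.5-fold lower was 1, where 10.6% of all genes were higher and 7.49% lower by the same measure. The medians of the subunits were close, at 0.58 over 31 small and 0.55 over 48 large subunit members. The summed reads of all members gave 0.59.

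Rps27 had 960, 6158, 1072 and 2838 reads, or 60.2, 387, 61.2 and 175 CPM. Both libraries with CH223191 were above both with DMSO. Its ratio in normal medium was 6.43-fold, a log2 ratio of 2.68 (95% interval 2.59 to 2.78), the highest of the members. Rps29, a zinc finger protein of the small subunit, had 177, 636, 124 and 131 CPM, so that only NM-CH223191 stood out. Its log2 ratio was 1.85 (1.79 to 1.91). Rps28 had 71.9, 237, 42.7 and 57.3 CPM and a log2 ratio of 1.72 (1.62 to 1.82). Rpl38, a large subunit protein known for its part in the translation of Hox mRNAs, had 93.3, 274, 63.7 and 68.5 CPM and a log2 ratio of 1.56 (1.47 to 1.64). Rps28 and Rpl38 thus had the same outline as Rps29.

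At the other end stood members whose level in normal medium was close with and without CH223191, or that had few reads. Rps20 had 325, 298, 199 and 192 CPM, which separated the media and not the inhibitor, with a log2 ratio of -0.12 (-0.18 to -0.07). Rps2 had 276, 212, 191 and 224 reads and a log2 ratio of -0.38 (-0.64 to -0.11). Rpl21 had 26, 20, 10 and 12 reads, and its interval of -1.29 to 0.52 spanned 0. Rpl24, the member counted as lower, had 11, 5, 20 and 10 reads, with an interval of -3.01 to 0.51 that spans 0 as well.

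**Figure D2:**
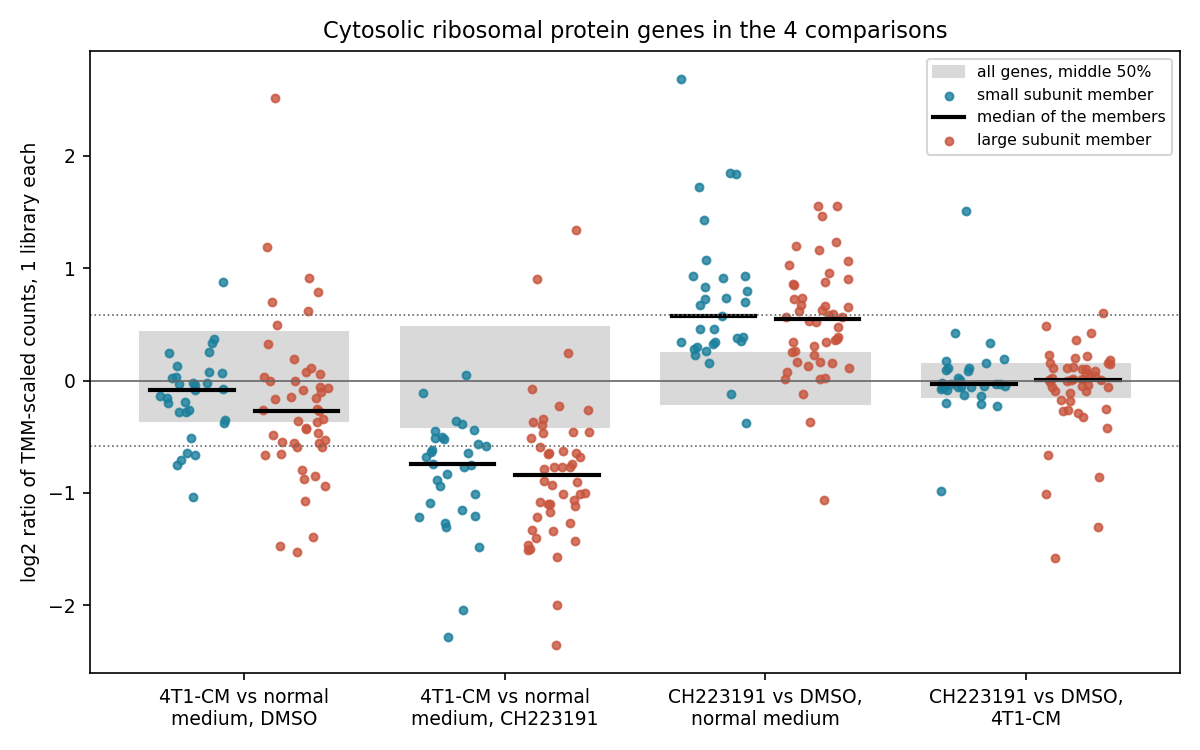
Log2 ratio of TMM-scaled counts (vertical axis) of the 79 members in the 4 comparisons, each between 1 library and another, with a point per gene coloured by subunit, black bars at the median of each subunit and grey boxes over the middle 50% of all genes. Dotted lines mark 1.5-fold. The members' medians were -0.17, -0.77, 0.57 and -0.01 from left to right.

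With 4T1-CM present, the same comparison gave another picture. The median of the members was -0.01 beside 0.00 for all genes, with 38 members above 0 and 41 below. Only 2 members were at least 1.5-fold higher and 6 lower (2.53% and 7.59%), where 6.23% and 6.02% of all genes were higher and lower. The middle 50% of the members lay between -0.10 and 0.11. Most of the family, like most of all genes, therefore differed by less than 1.5-fold between these cultures. The difference of the responses in the media was not tested, since each rests on single libraries.

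Of the exceptions, the 2 higher and 5 of the 6 lower members had at least 50% of their words in another gene, as had 39 of all 79. Rps27 was again highest, at 2.85-fold or a log2 ratio of 1.51 (1.41 to 1.61). Rpl13a had 173, 174, 120 and 169 reads and a log2 ratio of 0.60 (0.26 to 0.95), and 59.3% of its exonic bases lie within another annotated gene. Rpl23a (0.48) and Rpl28 (0.42) followed. On the low side, Rps27a, which encodes ubiquitin joined to a small subunit protein, had 153, 191, 157 and 79.2 CPM. Only CM-CH223191 was low, at a log2 ratio of -0.98 (-1.08 to -0.89). Rpl30 (-1.01), Rpl26 (-1.30, at 73, 67, 139 and 52 reads) and Rpl36al (-1.58, at 12, 22, 14 and 4 reads) were lower still. In both media, Rps27 alone of the members was up by 1.5-fold or more under CH223191 (1.27%), beside 2.11% of all genes, and Rpl24 alone was lower (1.27%, all genes 1.62%). Rpl36al alone passed 1.5-fold in opposite directions in the media (1.27%, all genes 2.63%), on few reads.

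4T1-CM was compared with normal medium to see how tumour-conditioned medium acts on macrophages. With DMSO, the members were slightly lower under 4T1-CM, at a median log2 ratio of -0.17 against 0.01 for all genes, with 56 of 79 below 0. At least 1.5-fold lower were 17 members (21.5%) and higher were 7 (8.86%), beside 15.2% and 20% of all genes. With CH223191, the median was -0.77 against 0.02, 75 of 79 members were below 0, 55 (69.6%) were at least 1.5-fold lower and 2 (2.53%) higher, beside 17.5% and 20.8% of all genes. The second comparison includes the NM-CH223191 library, in which the family was high.

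These comparisons share no library, so the members that moved the same way in both rest on all 4 libraries. At least 1.5-fold lower under 4T1-CM in both were 15 members, 19.0% of the 79, beside 9.6% of all genes. They were Rpl8, Rpl10a, Rpl11, Rpl12, Rpl21, Rpl22l1, Rpl23, Rpl23a, Rpl35, Rpl36 and Rplp1 of the large subunit and Rps10, Rps15, Rps20 and Rps28 of the small. Rpl21 (-1.47 and -0.74) rests on 26 reads or fewer per library. Higher in both were Rpl24 (0.70 and 0.90) and Rpl30, 2.53% of the members beside 13.9% of all genes. Across the 79 members, the log2 ratios of both comparisons had a Spearman correlation of 0.41 and a Pearson correlation of 0.54, against 0.69 and 0.74 across all 13715 genes. These are descriptions across genes, which share libraries and are not replicates.

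Rpl22l1 (chr3:28805436-28807424, plus strand), a paralogue that can take the place of Rpl22 in the large subunit, had 405, 411, 154 and 166 reads, or 25.4, 25.8, 8.8 and 10.2 CPM. Both libraries in 4T1-CM were below both in normal medium, and CH223191 made little difference in either. Its log2 ratios were -1.53 (-1.81 to -1.26) with DMSO, the lowest of the members, and -1.34 (-1.61 to -1.07) with CH223191. Of its words 65.6% occur in another gene, and with reads of its copy added the ratios were -1.557 and -1.225. Rpl22 itself had 129, 166, 107 and 106 CPM, with log2 ratios of -0.27 and -0.65.

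Rpl23a, which sits at the exit of the nascent chain, had 130, 197, 49.6 and 69.4 CPM and log2 ratios of -1.39 (-1.51 to -1.27) and -1.5 (-1.60 to -1.40). Rpl10a (chr17:28328471-28331033, plus strand), a protein of the mobile L1 stalk, had 392, 514, 186 and 186 CPM and log2 ratios of -1.07 (-1.14 to -1.01) and -1.47 (-1.53 to -1.41). Of the words of Rpl23a 85.7% occur in another gene, and 55.4% of its exonic bases overlap Tlcd1. For Rpl10a 88.1% of the words do so. With reads of copies added, the log2 ratios were -1.009 and -1.254 for Rpl23a and -1.012 and -1.452 for Rpl10a. Rpl8 had 490, 574, 283 and 285 CPM and log2 ratios of -0.79 and -1.01, and only 6.5% of its words occur in another gene. Each of these genes was lower in both libraries with 4T1-CM than in both without it. The 5S particle proteins, which also bind MDM2 when free, differed from each other. Rpl11 had 292, 371, 162 and 176 CPM, with log2 ratios of -0.85 and -1.08, and Rpl5 had 314, 399, 300 and 341 CPM, with -0.07 and -0.22.

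Among the stalk proteins, which recruit the GTPases of translation, Rplp1 had 812, 1130, 424 and 426 CPM, and log2 ratios of -0.94 (-0.98 to -0.90) with DMSO and -1.41 (-1.45 to -1.36) with CH223191. Rplp2 had 256, 384, 186 and 179 CPM and log2 ratios of -0.46 and -1.10. Rplp0, on which both are anchored, had 297, 554, 455 and 403 CPM and log2 ratios of 0.61 and -0.46. The libraries of Rplp0 were thus not separated by medium, unlike those of Rplp1 and Rplp2. The processed copy Gm8730 had 327, 435, 255 and 241 CPM, and the reads of Rplp0 and Gm8730 together gave log2 ratios of 0.19 and -0.62.

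**Figure D3:**
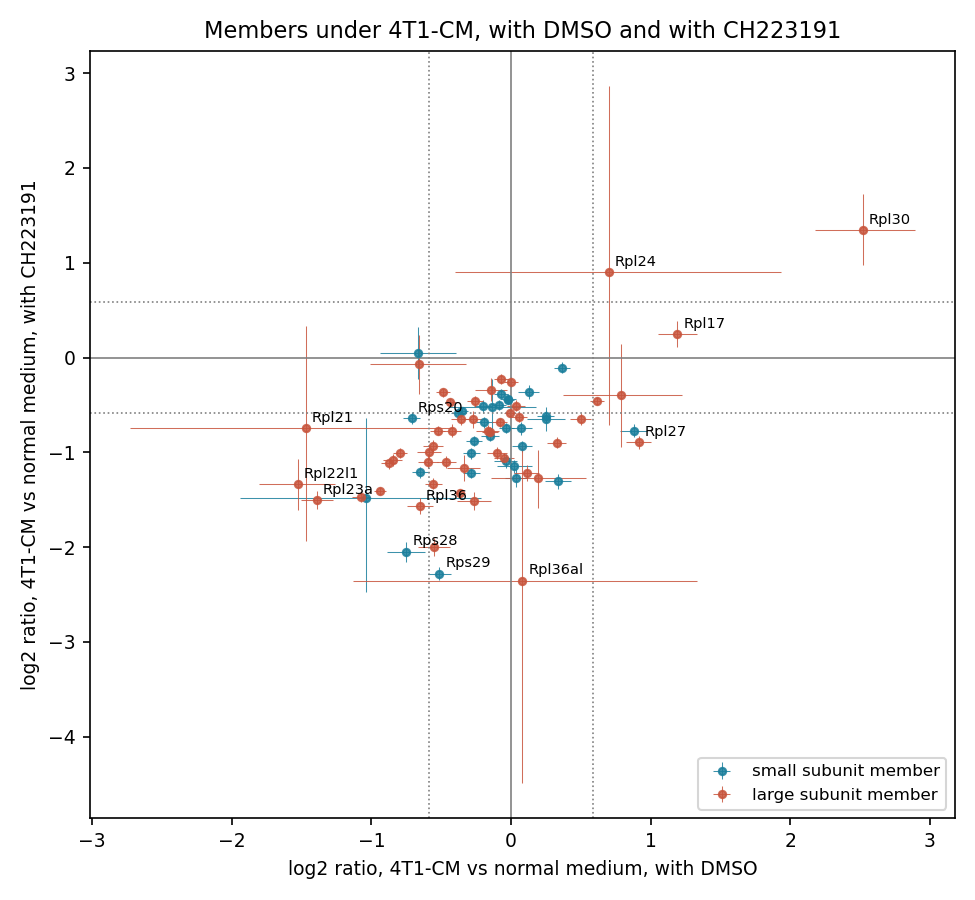
Log2 ratio of 4T1-CM to normal medium with DMSO (horizontal axis) and with CH223191 (vertical axis) for the 79 members. Bars mark the exact 95% counting intervals and dotted lines mark 1.5-fold. Most points lie below 0 on the vertical axis, 15 members pass 1.5-fold lower on both axes, and Rpl30 stands apart at 2.52 and 1.34.

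Lowest with CH223191 present were Rpl36al at -2.35 (-4.49 to -0.93, on few reads), Rps29 at -2.28 (-2.35 to -2.21), Rps28 at -2.05 and Rpl38 at -2.0, of which the last 3 are among the members highest in NM-CH223191. Rpl27 went opposite ways, with 100, 295, 189 and 159 CPM and log2 ratios of 0.91 (0.83 to 1.0) and -0.90 (-0.97 to -0.83). At least 1.5-fold apart in opposite directions were 2.53% of the members, beside 1.79% of all genes. In Rpl27, NM-DMSO was lowest and NM-CH223191 highest.

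Rpl30 (chr15:34440505-34443640, minus strand) was listed with 76, 85, 481 and 221 reads, or 4.77, 5.34, 27.5 and 13.6 CPM. Its log2 ratios of 2.52 (2.17 to 2.90) and 1.34 (0.98 to 1.73) were the highest of the members. Of its words, 79.2% occur in another gene, and 57.4% of its exonic bases overlap D730044K07Rik. Its copy Gm12191, a processed pseudogene by annotation, had 1235, 2727, 1123 and 1155 reads. The sum of the pair was 1311, 2812, 1604 and 1376 reads, with log2 ratios of 0.16 (0.05 to 0.26) with DMSO and -1.06 (-1.16 to -0.97) with CH223191. Most of these reads stood under Gm12191, which holds 29.7% of the words of Rpl30. The sum thus follows the copy and cannot show whether Rpl30 itself differed.

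Other members also had reads listed under a copy. Under Rps27rt, 1246, 946, 2491 and 485 reads were listed, high where Rps27 was low. Rps27 and Rps27rt together had 2206, 7104, 3563 and 3323 reads, or 138, 447, 204 and 205 CPM. For this sum, the log2 ratio of CH223191 to DMSO was 0.01 (-0.06 to 0.08) in 4T1-CM and 1.69 (1.62 to 1.76) in normal medium. The difference listed for Rps27 in 4T1-CM was therefore absent from the sum, whereas one was present in normal medium. Rps27l, with its own sequence, had 48.9, 79.3, 58.2 and 50.7 CPM and log2 ratios of 0.70 and -0.20.

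For some members nearly all reads stood under the copy. Rpl26 had 73, 67, 139 and 52 reads, and Gm15772 had 5256, 7653, 7169 and 6093. Their sum gave log2 ratios of 0.32 and -0.36 for 4T1-CM and 0.54 and -0.14 for CH223191. Rps2 had 17.3, 13.3, 10.9 and 13.8 CPM, whereas Rps2-ps10 had 359, 386, 278 and 270. Rps10 had 36, 42, 19 and 15 reads and Rps10-ps2 had 1602, 1817, 2036 and 1813, and of the log2 ratios for 4T1-CM, -1.04 and -1.49 for Rps10 became 0.19 and -0.06 for the sum. Rpl17 had 596, 853, 1494 and 1035 reads, with log2 ratios of 1.19 and 0.25 for 4T1-CM. Together with Rpl17-ps10 and Rpl17-ps3 it had 2630, 7506, 5744 and 5045, with 0.99 and -0.60. The low levels listed for Rpl26, Rps2 and Rps10 thus stood beside high levels listed for their copies.

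**Figure D4:**
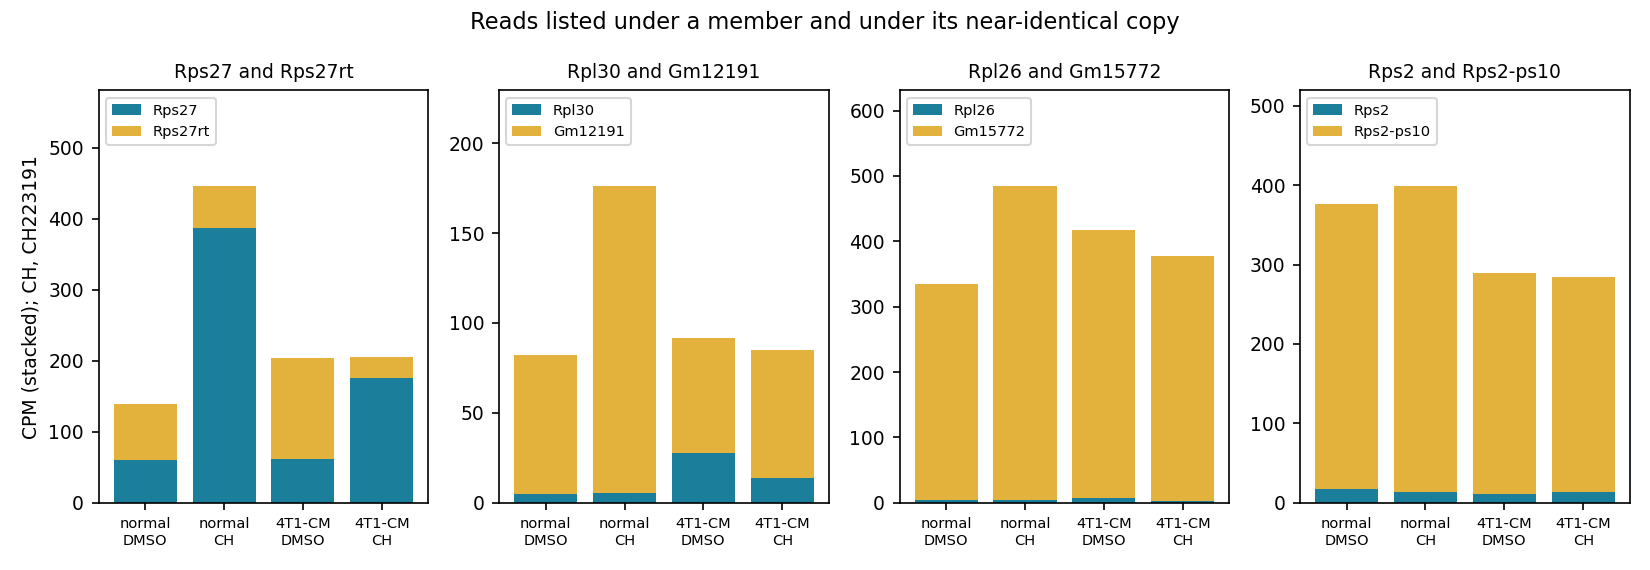
CPM listed under a member (blue) and under its near-identical copy (yellow), stacked, in the 4 libraries for Rps27, Rpl30, Rpl26 and Rps2, with CH standing for CH223191. The sum of Rps27 and Rps27rt is 204 and 205 CPM in the libraries with 4T1-CM, although its division differs.

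When the reads of every copy that shares at least 20% of its words were added to the member, the median in normal medium was 0.65 for CH223191, and 12 members were at least 1.5-fold lower under 4T1-CM in both comparisons, without Rpl35, Rps10 and Rps28. No member was then higher in both. Shares of all genes after this addition are not given. Over the 40 members with under 50% of their words in another gene, the medians were -0.23, -0.77, 0.60 and -0.05 in the 4 comparisons, close to those of all members.

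The members also share short mRNAs. The median length of the principal transcript was 886 bases over the 79 members and 3026 bases over 11791 other protein-coding genes, and 62.0% of the members but 5.2% of the others were at most 1000 bases long. In normal medium, the log2 ratio of CH223191 to DMSO was lower for longer transcripts, with a Spearman correlation of -0.49 over the members and -0.27 over the others. In 4T1-CM the same correlations were -0.07 and 0.05. Length thus moved with the response in normal medium among genes of all kinds, not among members alone.

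Within classes of equal length, the members stayed above the others in normal medium. Up to 500 bases, the median log2 ratio was 1.43 over 11 members and 0.34 over 55 other protein-coding genes. Between 500 and 600 bases it was nearly the same in both, at 0.66 over 8 and 0.58 over 47. Between 600 and 800 bases it was 0.58 over 15 and 0.34 over 218, and between 1000 and 1500 bases 0.55 over 18 and 0.16 over 1117. After a trend on transcript length was subtracted from all genes, the members' medians were -0.40 for 4T1-CM with CH223191, 0.32 for CH223191 in normal medium and 0.00 in both other comparisons. With that trend removed, CH223191 in normal medium left 20 members past 1.5-fold on the high side. Under 4T1-CM, 8 remained at least 1.5-fold lower in both comparisons (Rpl8, Rpl10a, Rpl12, Rpl22l1, Rpl23a, Rplp1, Rps10 and Rps20). Shares of all genes after this subtraction are not given, so these counts cannot be set against them. Before it, 10.6% of all genes were higher with CH223191 in normal medium and 9.6% were lower under 4T1-CM in both comparisons.

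**Figure D5:**
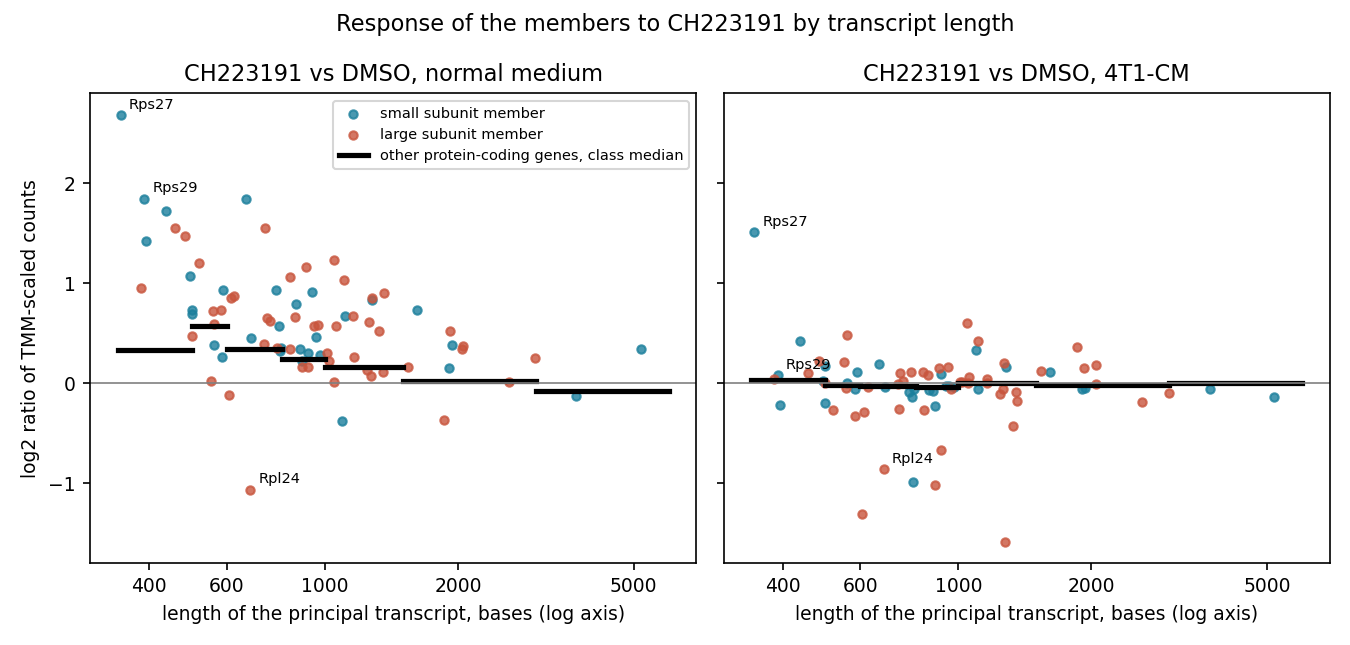
Log2 ratio of CH223191 to DMSO in normal medium (left) and in 4T1-CM (right) against the length of the principal transcript in bases (log axis), with a point per member and black bars at the median of other protein-coding genes in each length class. In normal medium both the bars and the points lie higher at short lengths, with the median of members up to 500 bases at 1.43 and that of other genes at 0.34.

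Members with and without the run of C or T at the annotated start were also set side by side. In normal medium the median for CH223191 was 0.39 over 29 members with a run of at least 6 and 0.67 over 31 with a shorter one, and in 4T1-CM it was 0.01 and -0.05. For 4T1-CM the medians were -0.36 and -0.07 with DMSO, and -0.89 and -0.75 with CH223191. Members with a run thus had the lower medians for 4T1-CM and the smaller one for CH223191 in normal medium, and these differences were not tested. Among other protein-coding genes the medians with and without such a run were 0.02 and 0.00 for 4T1-CM with DMSO, and 0.00 in both for CH223191.

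Pairs of paralogues and related genes were set side by side, since the products of some pairs can take the same place in the ribosome. Rpl36a had 73.0, 202, 60.8 and 71.0 CPM, with log2 ratios for CH223191 of 1.47 without and 0.22 with 4T1-CM, whereas Rpl36al stayed at or below 1.38 CPM in each library. Rpl7 had 391, 470, 390 and 393 CPM and its relative Rpl7l1 had 77.2, 78.0, 69.9 and 61.7. Rpl39 (158, 287, 223 and 183 CPM), Rpl3 (331, 358, 277 and 260 CPM) and Rpl10 (525, 833, 524 and 554 CPM) were high, while Rpl39l, Rpl3l and Rpl10l were close to or at 0. The tissue-restricted forms thus added next to nothing to the reads of the family.

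An additive model of medium and inhibitor, fitted over the 4 libraries with the quasi-likelihood test of edgeR and 1 residual degree of freedom, is the sole source of p-values. That residual is the departure of the 4 libraries from additivity, so the p-values do not measure the variation among cultures. For the medium, 40 members (50.6%) passed an adjusted p of 0.05, 38 lower and 2 higher (Rpl17 and Rpl30), beside 32.6% of all genes, and 49 members were below an unadjusted p of 0.05, beside 43.4% of all genes. Rpl23a was at a log2 change of -1.45 (edgeR, Benjamini-Hochberg adjusted p = 1.3e-05) and Rpl22l1 at -1.43 (adjusted p = 8.2e-05 by the same test). For the inhibitor, 1 member passed, Rps27, at a log2 change of 2.10 (adjusted p = 0.0173, edgeR), beside 0.0802% of all genes, and 24 members (30.4%) were below an unadjusted p of 0.05, beside 6.42% of all genes. The model takes the inhibitor to act alike in both media. Its call of Rps27 rests on the reads listed under that gene, most of whose words occur in Rps27rt. Adding the reads of Rps27rt gave a log2 ratio for CH223191 of 0.01 (-0.06 to 0.08) with 4T1-CM present. Without 4T1-CM the same sum gave 1.69 (1.62 to 1.76). The sum was not tested with the model. The calls for the medium also rest on reads listed under each gene. With the copies named above added, the log2 ratios for 4T1-CM were 0.16 and -1.06 for Rpl30 and 0.99 and -0.60 for Rpl17. For Rps10, called lower, they were 0.19 and -0.06. With copies added, Rpl23a had -1.009 and -1.254 and Rpl22l1 had -1.557 and -1.225.

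Related genes were read the same way. The mitochondrial ribosomal proteins, which form the separate ribosome of that organelle, had medians of -0.21, -0.39, 0.19 and -0.05 over 77 genes, with 13 (16.9%) and 30 (39.0%) at least 1.5-fold lower under 4T1-CM with DMSO and with CH223191, beside 15.2% and 17.5% of all genes. With CH223191 in normal medium 8 (10.4%) were at least 1.5-fold higher, beside 10.6% of all genes, so that this share and that with DMSO were close to those of all genes. Mrps26 was among the lowest under 4T1-CM, with 979, 1112, 427 and 428 reads, and Mrpl45 was highest, with 382, 346, 803 and 617. Of the ribosomal proteins outside the rule, Fau had 5594, 8433, 6790 and 6127 reads and was highest in NM-CH223191. Rps3a1 had 6408, 4800, 3876 and 4764 reads and was lowest in CM-DMSO.

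Among 20 mRNAs of translation elongation and other TOP mRNAs, the medians were -0.14, -0.26, 0.04 and 0.04, where those of the members were -0.17, -0.77, 0.57 and -0.01. Only 1 of the 20 was at least 1.5-fold higher with CH223191 in NM, Naca, with 2055, 3092, 2639 and 2609 reads. Eef1d, a subunit of elongation factor 1, had 1503, 1414, 734 and 766 reads and the lowest log2 ratios under 4T1-CM, -1.17 and -0.92. The 27 genes of ribosome biogenesis and RNA polymerase I had medians of -0.40 and -0.55 for 4T1-CM and -0.03 in both comparisons of CH223191, with 8 (29.6%) and 11 (40.7%) at least 1.5-fold lower under 4T1-CM and 0 higher, beside 15.2% and 17.5% of all genes lower. Ubtf, an activator of RNA polymerase I, had 1468, 1435, 777 and 726 reads, and Fbl, the methyltransferase fibrillarin, had 699, 886, 436 and 429. Both separated the media in the same direction as Rplp1 and Rpl10a, and Ubtf had log2 ratios of -0.03 and 0.01 for CH223191.

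Of 15 analysed genes of mTORC1, LARP1 and MYC control, 2 (13.3%) were at least 1.5-fold lower under 4T1-CM in each comparison. Of all genes, 15.2% and 17.5% were lower. Higher were 0 with DMSO and 1 (6.67%) with CH223191, beside 20% and 20.8% of all genes. It was Mdm2, with 2310, 1712, 3169 and 2821 reads and log2 ratios of 0.32 and 0.69. For CH223191, 0 passed 1.5-fold. Of all genes, 10.6% were higher and 7.49% lower in normal medium, and 6.23% and 6.02% in 4T1-CM. Myc, a transcription factor that drives ribosome synthesis, had 338, 340, 205 and 153 reads with log2 ratios of -0.86 and -1.18, and Mtor had 1254, 1261, 1236 and 1187 reads. The 7 analysed hosts of snoRNAs had medians of 0.02, -0.58, 0.38 and 0.09, the same order as the members. Pseudogenes of ribosomal proteins had medians of 0.07, -0.03, 0.34 and 0.22 over 87 of 403 entries, and their summed reads were 21581, 31981, 22425 and 22374.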

How the data were processed

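Mouse peritoneal macrophages gave 4 RNA-seq libraries, which cross medium (normal or with 30% 4T1-CM) with treatment (DMSO or 10 µM of CH223191) and hold 15535405 to 17557127 counts. The table that the authors deposited holds unnormalized read counts of each gene. The submitters' processing notes name HISAT2 2.0.5 and DESeq2, and the counting tool, use of strand and handling of reads with several matches are not given for these libraries in the sources used here. The study's methods name featureCounts for its libraries of alveolar macrophages, a separate dataset. Gene coordinates equalled those of GENCODE M21 (GRCm38) for 81 of 83 members.

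A gene was kept if any library gave it 10 reads or more. TMM scaling (edgeR 4.0.16 under R 4.3.3) was followed by log2 ratios with a prior count of 0.5. No pair was tested, since a condition has 1 library. The 95% intervals are exact Clopper-Pearson intervals of how a gene's reads divide between libraries, cover counting error only and compare libraries, not conditions. A 1.5-fold ratio was counted as a difference, and genes at 3 reads or fewer got no fold. An additive edgeR quasi-likelihood fit over the 4 libraries with Benjamini-Hochberg adjustment was an alternative, as were other scalings (DESeq2 1.42.0 size factors, total counts), filters, prior counts, length trends and the addition of reads of copies. The ratios and the fit were run on simulated counts, in which changes under 4T1-CM were alike with both treatments. Such counts cannot show how the fit behaves where responses to CH223191 differ between the media.

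Near-identical copies were found as shared 50-base words of GENCODE M21 transcripts, with pandas 2.3.3 and numpy 2.4.6 in Python 3.11.15. Start windows were taken from RefSeq on GRCm38.p6. Proteins were not compared, since no protein sequence was used here. Figures were drawn with matplotlib 3.10.9.

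The members and lists were chosen with earlier results of these data known. The text names the 4 members with the highest and lowest ratios of each comparison, those with the highest and lowest level per coding length, pairs of paralogues, stalk and 5S particle proteins, members under 10 reads and, of each list, genes at the ends of the ratios. Genes named for their copies, and the list members named beside these, were chosen after their values were seen. A few genes are not reported here by name, and stay in the counts and medians.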

Additional observations from a re-analysis of the deposited data

Results flagged for a closer look

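Rpl27 was flagged because its responses to 4T1-CM went in opposite directions with DMSO and with CH223191, each at least 1.5-fold and with counting intervals on 1 side of 0. The log2 ratio with CH223191 minus that with DMSO was -1.81. The difference was not tested, since each condition has 1 library. It equals the response to CH223191 in 4T1-CM minus that in normal medium, so it holds no evidence beyond the 4 values of the gene. NM-DMSO was lowest at 100 CPM and NM-CH223191 highest at 295 CPM. Of the words of Rpl27, 53.0% occur in another gene.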

How the results depend on the processing

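No replicate could be left out, since each condition has 1 library, and counting error limits the members with few reads. Of 150 values recomputed under an alternative, 108 stayed within the counting error or within 1.5 times the main count, 42 moved and none reversed. All 12 values recomputed with DESeq2 size factors, with total counts, with TMM factors without members and pseudogenes, and with reads of pseudogenes named after a member added stayed within these limits, as did the 4 ratios of summed reads. For the same reason, no analysis paired by replicate was possible.

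The trend on principal transcript length, the reads of all copies and the omission of members with over 50% shared words were chosen after seeing the data. Subtracting the trend on principal transcript length gave medians of -0.002 and -0.398 for 4T1-CM with DMSO and with CH223191 and 0.319 for CH223191 in normal medium, and counts of 10 and 27 lower members for 4T1-CM and 20 higher members for CH223191 in normal medium. A trend on exonic length gave medians of -0.098, -0.675 and 0.397 in the same order, and 11 lower members for 4T1-CM with DMSO. With reads of copies added, 4 members were higher for 4T1-CM with DMSO and 0 with CH223191, the median for CH223191 in normal medium was 0.647 with 0 lower members, and in 4T1-CM 2 were lower. Without members with over 50% shared words, which leaves fewer genes, 3 were higher and 6 lower for 4T1-CM with DMSO, 0 higher and 31 lower with CH223191, 20 higher and 0 lower for CH223191 in normal medium, and 0 higher and 1 lower in 4T1-CM. Requiring 10 reads in every library left 1 higher member for 4T1-CM with CH223191 and 0 lower for CH223191 in normal medium, where no filter gave 2. A prior count of 5 left 1 higher member for 4T1-CM with CH223191 and 1 for CH223191 in 4T1-CM. Shares of all genes under these alternatives are not given.

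As a share of protein-coding reads the members took 1.94%, 2.82%, 1.61% and 1.6% of NM-DMSO, NM-CH223191, CM-DMSO and CM-CH223191. Without the mitochondrial chromosome the shares were 1.93%, 2.8%, 1.61% and 1.6%, and with the pseudogenes added 2.05%, 2.97%, 1.71% and 1.71%. The additive fit, which pools all 4 libraries, called 40 members for the medium where 17 passed 1.5-fold the same way in both comparisons, and 1 for the inhibitor where 2 did.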

Other observations

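The mitochondrial chromosome, which encodes no cytosolic ribosomal protein, also differed between the libraries. Its reads were 98284 in NM-DMSO, 188192 in NM-CH223191, 308371 in CM-DMSO and 293895 in CM-CH223191. The log2 ratio of CH223191 to DMSO was 0.94 without and 0.04 with 4T1-CM. Unlike the members, these reads were higher under 4T1-CM, at log2 ratios of 1.51 with DMSO and 0.61 with CH223191.

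Members lie on many chromosomes, with 14 of the 83 on chromosome 7, 8 on chromosome 17 and 7 each on chromosomes 9 and 11. Among the copies of Rpl29, which itself had at most 9 reads, Gm13841 was listed with 220, 826, 377 and 663 reads, and Gm8210 with 18, 101, 33 and 50.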
